A study of Homo sapiens with 2 samples.

Results

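Chromatin of HaCaT cells, an immortalised human keratinocyte line, was immunoprecipitated with an antibody against AIM2. The regions described here are the peaks called in and around the chromosome 1 centromere. They were chosen by position: every peak of the deposited lists whose summit lay from 121 to 145 Mb of chromosome 1 (GRCh38). This gave 218 of the 1525 peaks in the 20 Gy list and 249 of the 1936 peaks in the 0 Gy list. The 20 Gy library came from HaCaT cells given 20 Gy of X-rays, and its title also gives 4 h without naming the starting event. The 0 Gy library came from the same line without irradiation. There was 1 library in each group and no control library was used, so differences between the libraries could not be set against replicate spread. Without a control, enrichment by the antibody and uneven recovery of reads cannot be told apart.

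AIM2 is a sensor that binds double-stranded DNA in the cytosol without regard to its sequence and assembles an inflammasome with the adaptor ASC and caspase-1. Human centromeres are built of alpha satellite, a tandem repeat on which the centromeric histone CENP-A and the kinetochore assemble, and the alpha satellite of chromosome 1 includes a family that is also found at the centromeres of chromosomes 5 and 19. Beyond the centromere on the long arm lies 1q12, one of the largest blocks of constitutive heterochromatin in the genome, made mainly of classical satellite DNA. In GRCh38 the centromere is filled with modelled arrays of repeats, whereas most of 1q12 is a run of unsequenced bases to which no read can be assigned. Near-identical repeat copies can exchange reads, and the alignment file named in the peak file headers carries the word uniq. Which reads that filter removed is not given in the sources used here.

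After filtering, 6423989 fragments remained in the 20 Gy library, against 8786091 in the 0 Gy library, so the 20 Gy depth was 0.731 times that at 0 Gy. Heights are therefore given as the pileup, the number of fragments that cover the summit, and as fragments per 1000000 kept fragments (FPM). Intervals are exact, at 95% confidence, and cover counting error only, since there was 1 library in each group.

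The peaks of the window made up 14.4% of all nuclear peaks at 20 Gy (Clopper-Pearson interval 12.6 to 16.2) and 12.9% at 0 Gy (11.4 to 14.5). Elsewhere on chromosome 1 there were only 9 peaks at 20 Gy and 7 at 0 Gy. The members covered 59706 bp at 20 Gy and 70191 bp at 0 Gy, with median lengths of 230 and 251 bp. Of the 20 Gy members, 17 were shorter than the 177 bp that a peak needed to be called at 0 Gy, where the minimum at 20 Gy was 170 bp. Nothing lay close to the limits of the window. The nearest peaks outside it had summits at 97447797 (pileup 5) and 159066099 (pileup 27) at 20 Gy, and at 46241826 (pileup 11) and 224013761 (pileup 19) at 0 Gy.

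No member summit fell in an annotated gene in either library. All but 2 peaks of each list, 216 at 20 Gy and 247 at 0 Gy, lay between EMBP1, a transcribed pseudogene that ends at 121571888, and LOC101929814, a long non-coding RNA gene that starts at 143299518. The RefSeq table places no gene in that interval. The window held 97 annotated genes, 12 of them protein-coding, and 39 promoter windows (250 bases before to 50 after a gene start), and 0 of these promoter windows overlapped a peak. The base sequence of the peaks was not analysed here, so the groups below are named by place and not by repeat class.

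When a distance over 1 Mb between neighbouring summits was taken to start a new block, the members formed 2 blocks. The first ran from 121639168 to 125183895 with 183 peaks at 20 Gy and 213 at 0 Gy, and the second from 143185233 to 144103761 with 35 and 36. Between them 18.0 Mb held no summit in either list, so the body of 1q12 was represented only by peaks on its flanks. A finer division at distances over 200 kb, made after the data were seen, gave 4 clusters, and the last 20 kb of the long central one was set apart because its peaks were far taller. The short-arm cluster held 6 peaks at 20 Gy and 5 at 0 Gy, and the central stretch 173 and 204. The edge cluster, at the long-arm end of the central stretch, held 4 in each library, and the distal cluster beyond the empty interval 33 and 34. A further 2 peaks in each library, the far cluster, lay near 144 Mb.

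**Figure D1:**
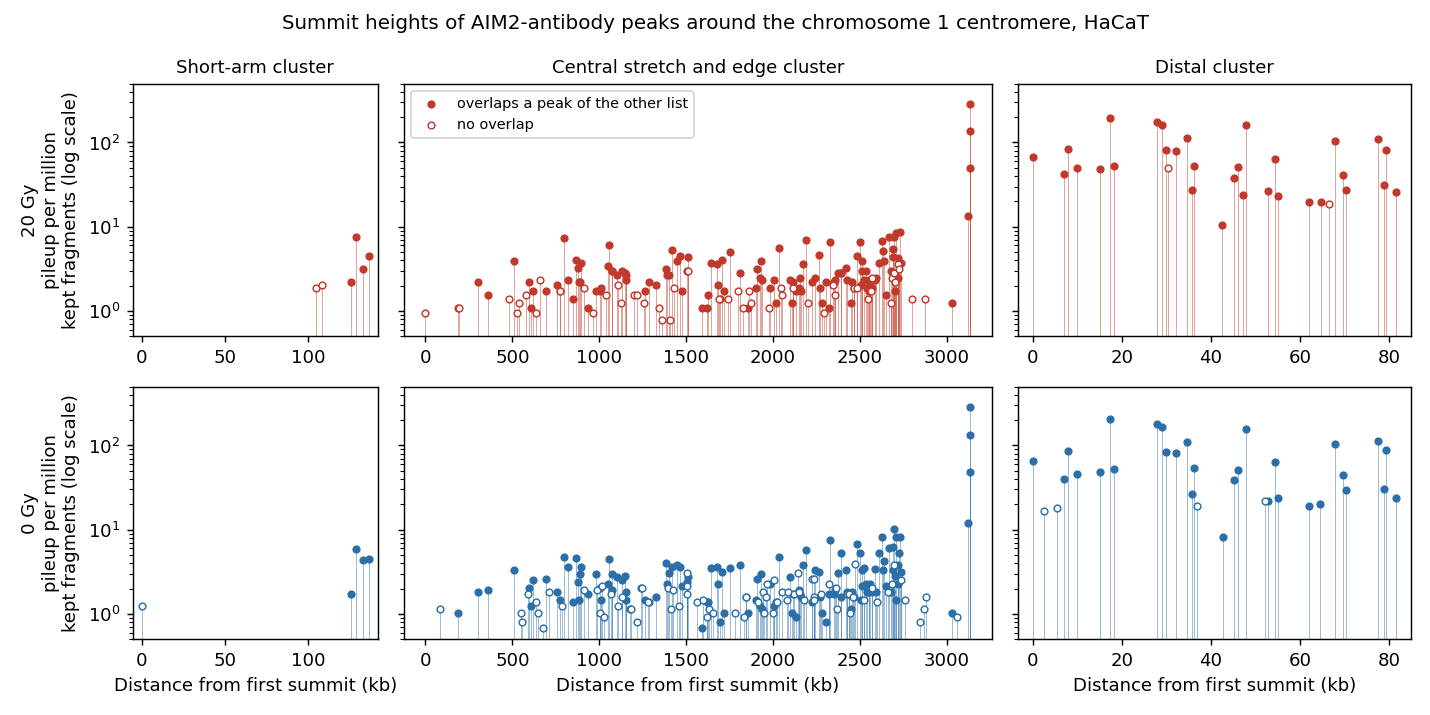
Height of each peak (FPM, log scale) against its distance in kb from the first summit of its panel, with 20 Gy above and 0 Gy below. The edge cluster shares the panel of the central stretch, so its distances count from the first central summit. Filled points overlap a peak of the other list and open points do not. The far cluster is not drawn. In both libraries the central stretch stays at or below 10.1 FPM while the edge cluster reaches 286, and the distal cluster lies between 8.08 and 209.

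The highest peaks of the window stood at the 2 sides of the empty interval, and their heights relative to depth were nearly the same with and without irradiation. The edge peak at 125178852 to 125180700 had a pileup of 1839 at 20 Gy, against 2515 at 0 Gy over 125178852 to 125180698. Both values equal 286 FPM, and the ratio of 20 Gy to 0 Gy was 1.00 (exact conditional interval 0.941 to 1.06). This peak ranked 2 by pileup among all nuclear peaks at 20 Gy and 1 at 0 Gy. The next edge peak, starting at 125182148 at 20 Gy, had a pileup of 874 there and 1169 at 0 Gy, a ratio of 1.02 (0.936 to 1.12). The last, starting at 125183710 at 20 Gy, had 323 and 431, a ratio of 1.02 (0.885 to 1.19). The first and lowest edge peak, starting at 125167471 at 20 Gy, had 85 and 105, a ratio of 1.11 (0.822 to 1.49). Height thus differed more than 20-fold along the edge cluster within each library, whereas each of the 4 counting intervals for the ratio between libraries included 1.

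The deposited fold enrichment ranked these peaks differently from their pileup. The 125178852 peak was 8.71 times its local background at 20 Gy and 8.38 times at 0 Gy. The peak at 125183710 was enriched only 1.61-fold at 20 Gy and 1.55-fold at 0 Gy although its pileup exceeded 300, because its local background was 31.2 FPM at 20 Gy and 31.5 at 0 Gy. The local background was recovered from pileup and fold enrichment, and over the window its lowest values, equal to the lowest of each whole list, were 0.0653 FPM at 20 Gy and 0.0677 at 0 Gy. The median edge peak therefore stood on a background 485 times that lowest value at 20 Gy and 478 times at 0 Gy. With the background taken from the same immunoprecipitated library over up to 10000 bp, neighbouring tall peaks can enter each other's background.

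The distal cluster ran over 82.1 kb, from 143184826 to 143266910 at 20 Gy, and peaks covered 15.6% of it at 20 Gy and 16.4% at 0 Gy. It made up 15.1% of the members at 20 Gy and 13.7% at 0 Gy, with 21.5% and 19.1% of their length, and carried 69.2% and 68.9% of their summed pileup. Its median pileup was 319 at 20 Gy and 413 at 0 Gy, which is 49.7 and 47.0 FPM. The tallest of its peaks, at 143202430 to 143202901 at 20 Gy, had 1256 fragments there and 1833 at 0 Gy, with fold enrichments of 21.2 and 21.6. The highest fold enrichment of the window belonged to its first peak, at 143184826 to 143185460 at 20 Gy, which was enriched 24.9-fold there and 23.9-fold at 0 Gy, with pileups of 434 and 582. That peak is the first after the empty interval, as the 125183710 peak is the last before it.

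A string of other tall peaks followed in the distal cluster, all present in both lists. The peak starting at 143212963 at 20 Gy had a pileup of 1127 there and 1570 at 0 Gy. The one starting at 143214221 had 1026 at 20 Gy and 1460 at 0 Gy. The peak starting at 143232784 at 20 Gy had 1048 against 1385 at 0 Gy, where the called region began at 143232380 and also took in a separate 20 Gy peak with a pileup of 151. These 3 peaks differed by less than counting error once scaled, with ratios of 0.982, 0.961 and 1.03. Pileups were 731 at 20 Gy and 965 at 0 Gy for the peak starting at 143219650, and 713 and 987 for the peak starting at 143262099. They were 667 and 926 for the peak starting at 143252891, 533 and 756 for that starting at 143192708, and 517 and 771 for that starting at 143264445. The last of these had the lowest ratio of the cluster, 0.917 (0.819 to 1.03). The highest ratio, 1.29 (0.910 to 1.83), belonged to the lowest peak, starting at 143227736, with a pileup of 67 at 20 Gy and 71 at 0 Gy.

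**Figure D2:**
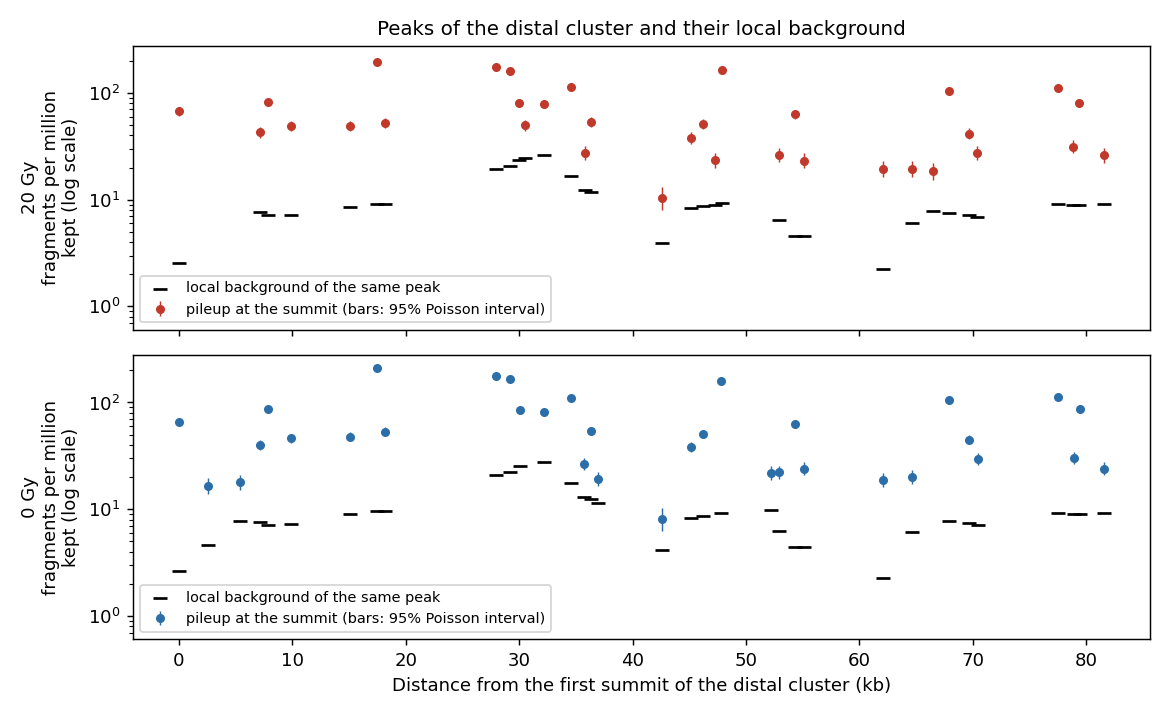
Height in FPM of each distal peak (points, with 95% Poisson intervals) and the local background of the same peak (dashes) against distance from the first summit, log scale, with 20 Gy above and 0 Gy below. The pattern of heights and the hump of background, which peaks at 26.2 FPM at 20 Gy and 27.8 at 0 Gy, recur in both libraries.

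Over the 30 overlapping pairs of the distal cluster the median ratio of 20 Gy to 0 Gy was 0.987, with a range of 0.917 to 1.29. By fold enrichment it was 1.03. Over all 1046 nuclear pairs these medians were 1.06 and 0.954. In the distal cluster the SD of the log2 ratio was 0.10, where counting error alone gives 0.12. All 34 counting intervals of the edge and distal pairs included 1. Local backgrounds followed the same course, with a ratio of 20 Gy to 0 Gy from 0.933 to 1.04 in the distal cluster. The called regions themselves were alike. In 26 of the 30 pairs (86.7%) both ends lay within 20 bp of those in the other library, and in 27 (90%) the summits did. Of all nuclear pairs, 41.2% had both ends and 50.7% had summits this close. The part of height in this difference was not tested.

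Among all nuclear peaks of each list, 25 of the 50 tallest by pileup were members of the window in each library. Of those 25, 22 lay in the distal cluster and 3 in the edge cluster, in the 20 Gy list and in the 0 Gy list alike. Peaks with a pileup over 100 numbered 35 of the 218 members at 20 Gy (16.1%) and 37 of the 249 at 0 Gy (14.9%). Outside the window the shares were 3.85% at 20 Gy and 4.29% at 0 Gy.

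The central stretch was the opposite in form, with many low peaks spread over about 3 Mb. Its first summits were at 122046575 at 20 Gy and 122128032 at 0 Gy, and its last at 125080371 and 125105820. Peaks covered 1.37% of it at 20 Gy and 1.73% at 0 Gy. Median pileups were 14 and 16, or 2.18 FPM at 20 Gy and 1.82 at 0 Gy, and the highest were 56 and 89. It held 79.4% of the members at 20 Gy and 81.9% at 0 Gy, but 14.4% and 15.1% of their summed pileup. Median fold enrichment was 7.22 at 20 Gy and 7.43 at 0 Gy, above the distal medians of 5.63 and 5.29. The median local background was only 0.148 FPM at 20 Gy and 0.142 at 0 Gy. At such low backgrounds the added 1 holds fold enrichment well below the plain ratio of height to background. In the distal cluster it changes little.

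Peak density along the central stretch was uneven and was higher toward the long arm in both libraries. Over the first 500 kb there were 1.2 peaks per 100 kb at 20 Gy and 0.8 at 0 Gy. From 500 to 1000 kb there were 5 and 5.4, from 1000 to 1500 kb 6.2 and 7.4, and from 1500 to 2000 kb 5.6 and 7.4. Density was 8.2 at 20 Gy and 11.2 at 0 Gy from 2000 to 2500 kb, and 13.3 and 12.7 from 2500 to 2800 kb. From 2800 to 3200 kb, leaving out the edge peaks, density was 0.5 at 20 Gy and 1.25 at 0 Gy. That part contains the edge cluster and runs past the last summit into the empty interval, which lowers its density. The parts were of unequal length and were set after the data were seen. The densest part also had the tallest peaks, with median pileups of 17 at 20 Gy and 21 at 0 Gy and a local background of 0.237 and 0.236 FPM. Density, height and background were thus all highest in the same part of the stretch, and the part of each in the others was not tested.

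**Figure D3:**
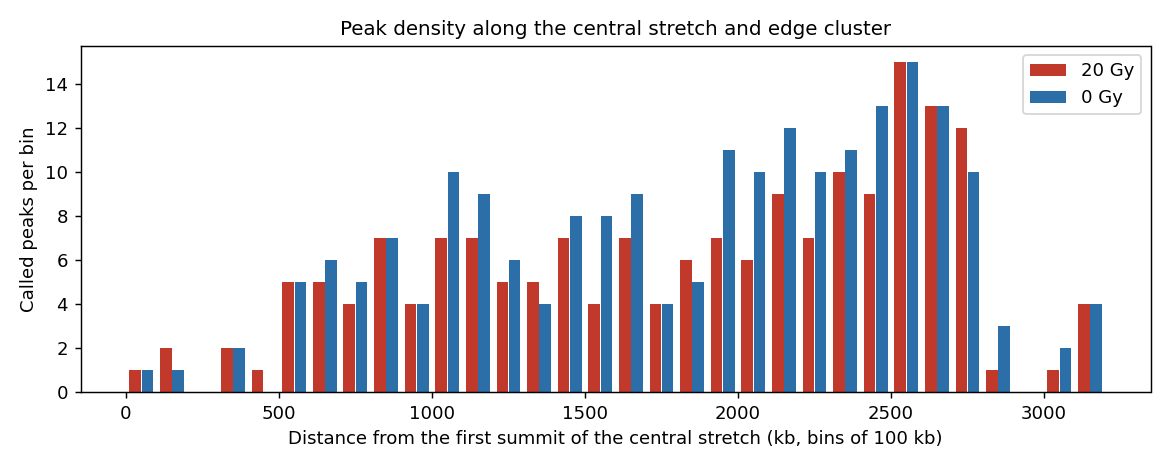
Number of called peaks in each 100 kb bin from the first summit of the central stretch, with 20 Gy on the left and 0 Gy on the right of each bin. Both libraries climb to 15 peaks in the bin from 2500 to 2600 kb and have 0 to 3 peaks per bin from 2800 to 3100 kb, before the 4 edge peaks.

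The 3 tallest central peaks of the 20 Gy list, named after their values were seen, were found in both libraries. The peak at 124778057 to 124778323 had a pileup of 56 at 20 Gy and 71 at 0 Gy, a ratio of 1.08 (0.746 to 1.55). The peak at 124757545 to 124757849 had 54 at 20 Gy and 71 at 0 Gy, a ratio of 1.04. The peak starting at 124741308 had 49 at 20 Gy and 89 at 0 Gy, the highest central pileup of that library, and a ratio of 0.753 (0.520 to 1.08). The counting interval of each of these ratios included 1, so at this depth no difference was detectable.

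The spread of ratios in the central stretch was wider than in the distal cluster and close to what counting gives. Over its 124 pairs the ratio of 20 Gy to 0 Gy had a median of 1.16, against 1.06 over all 1046 nuclear pairs. Central ratios ran from 0.535 to 2.74, with an SD of 0.44 on the log2 scale where counting error alone gives 0.50. In the 62 pairs with the higher mean pileup the median was 1.05 and the SD 0.40, where counting error alone gives 0.40. In the other 62 the median was 1.20 and the SD 0.45, where counting error alone gives 0.59. By fold enrichment in place of pileup the median ratio of the 124 pairs was 0.960, on the other side of 1. That of all nuclear pairs was 0.954. The direction of the central median thus depends on the measure. Fold enrichment adds 1 to unscaled values, which at equal low FPM lowers it more in the shallower 20 Gy library. The median ratio of the central backgrounds in FPM was 0.994. The part of the added 1 in the change of side was not tested. A pair exists only where both libraries passed the caller's limit, and the lowest central height called was 0.778 FPM at 20 Gy and 0.683 at 0 Gy. Low pairs with extreme ratios can be missing for this reason, so these SDs cannot show whether there was spread beyond counting. The part of that limit in the spread and in the higher ratio of low pairs was not tested. The highest ratio was at 124351511 to 124351779, with 14 fragments at 20 Gy and 7 at 0 Gy, or 2.74 (1.03 to 8.01). The lowest was at 124437309 to 124437522, with 18 at 20 Gy and 46 at 0 Gy, or 0.535 (0.292 to 0.941).

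These were also the only 2 pairs of the window whose interval did not include 1. The next highest ratios were 2.05 at 123985388, 1.99 at 123974413, 1.88 at 124179279 and 1.87 at 124051612, and the next lowest were 0.579 at 123027220, 0.602 at 124749931 and 0.638 at both 122981123 and 124371716. Each rested on 7 to 26 fragments per library. Over all 164 pairs of the window, 19 (11.6%) had a ratio of at least 1.5, where 10.7% of all 1046 nuclear pairs did. A ratio of at most 0.667 was seen in 9 (5.49%), against 5.64% of all nuclear pairs. A single pair, 1 of 164 (0.610%), had a counting interval wholly above 1 and 1 wholly below, against 1.63% and 1.05% of all nuclear pairs. The shares in the window taken whole were thus near those of the whole lists. They pool unlike parts, since 0 of the 34 edge and distal pairs passed either ratio limit. In the central stretch 19 of 124 pairs (15.3%) passed the upper limit and 9 (7.26%) the lower. In its 62 taller pairs these shares were 8.06% and 9.68%, and in the other 62 they were 22.6% and 4.84%.

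**Figure D4:**
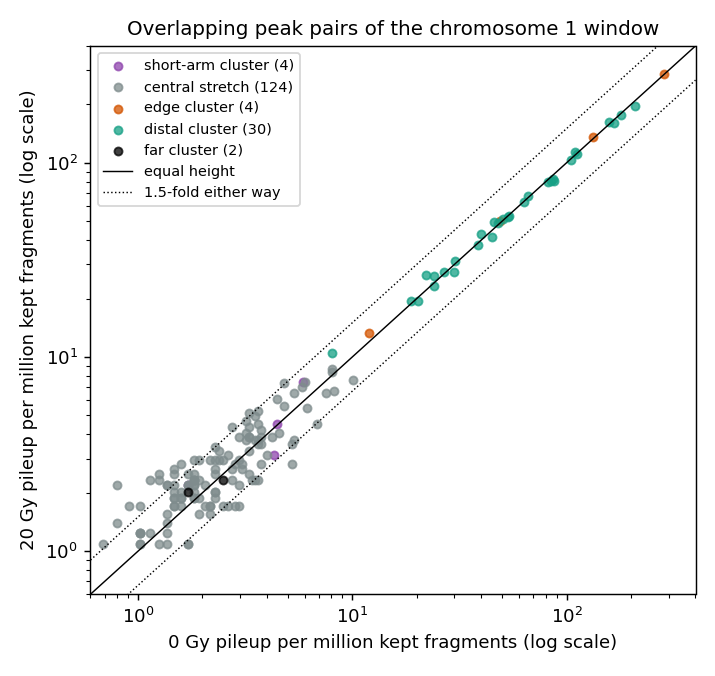
Height in FPM at 20 Gy (vertical) against 0 Gy (horizontal) for the 164 overlapping pairs, log scales, coloured by cluster; the solid line marks equal height and the dotted lines 1.5-fold either way. Edge and distal pairs lie along the solid line, and the 28 pairs past a dotted line are all in the central stretch. They are 15.3% (above) and 7.26% (below) of its 124 pairs, against 10.7% and 5.64% of all nuclear pairs.

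Most members overlapped a peak of the other list by at least 1 bp. At 20 Gy 165 of 218 did (75.7%, 69.4 to 81.2), against 69.2% of all nuclear peaks. At 0 Gy 164 of 249 did (65.9%, 59.6 to 71.7), against 54.3% of all nuclear peaks. Outside the window the shares were 68.1% at 20 Gy (65.5 to 70.6) and 52.6% at 0 Gy (50.1 to 55.0). The intervals inside and outside the window were separate at 0 Gy and overlapped at 20 Gy. They treat neighbouring peaks of 1 library as independent, so their separation is not a test. The window also held more tall peaks, and the part of height in the difference was not tested. The edge cluster and the pair near 144 Mb were shared in full, and the distal cluster in 31 of 33 peaks at 20 Gy and 30 of 34 at 0 Gy. In the central stretch 124 of 173 were shared at 20 Gy (71.7%, 64.3 to 78.3) and 124 of 204 at 0 Gy (60.8%, 53.7 to 67.5). In each library this interval overlapped the one outside the window.

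Within the central stretch the share followed height. At 20 Gy it was 37.8% for pileups under 10 (14 of 37), 74.5% from 10 to under 20 (70 of 94), 92.3% from 20 to under 30 (24 of 26) and 100% from 30 (16 of 16). At 0 Gy it was 38.5% (10 of 26), 48.0% (49 of 102), 78.6% (33 of 42) and 94.1% (32 of 34) in the same classes. The classes are of unscaled pileup and stand for lower FPM at 0 Gy, so they do not compare the libraries at equal height. In both libraries the share was higher in each taller class.

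Peaks in 1 list only numbered 53 at 20 Gy and 85 at 0 Gy, with median pileups of 10 and 14. Of the 53, 10 had lengths under 177 bp at 20 Gy. Such a length did not by itself exclude a peak at 0 Gy. The shared 20 Gy peaks starting at 122404286 and 122663853 were 174 and 176 bp long. Their 0 Gy partners measured 290 and 227 bp. Why the 10 had no 0 Gy partner was not tested. When pileup and background of the 85 were multiplied by the depth ratio, 6 no longer reached the lowest −log10 p-value called at 20 Gy, 5.03, and 79 still did. Counting error around such low pileups, and the minimum length after scaling, are not part of this calculation. The 85 also passed the caller's limit at 0 Gy, which selects heights that came out high there. The calculation therefore cannot show the part of depth in their absence at 20 Gy, which was not tested.

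The unshared peaks with the highest −log10 q-values included distal ones that sat between taller neighbours. At 20 Gy these were at 143215656 to 143215851, with a pileup of 319 and a fold enrichment of only 2.03, and at 143251613 to 143252053, with 118 and 2.33. At 0 Gy they were at 143187706 to 143187897, with 145 and 3.49, and at 143237367 to 143237545, with 192 and 2.23. Their local backgrounds were 24.3 and 7.78 FPM at 20 Gy and 4.65 and 9.74 FPM at 0 Gy, each far above the central median. In the central stretch the leading 20 Gy-only peaks started at 122703303, 124767954 and 123474614, with pileups of 15, 23 and 12. The leading 0 Gy-only peaks started at 124519602, 124188928 and 124270015, with 34, 27 and 23. The 0 Gy-only peak at 124519602 was the tallest unshared central peak of either library, 3.87 FPM, and the nearest 20 Gy summit was 5641 bp away.

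The short-arm cluster lay between EMBP1 and the central stretch and was low. Its main peak, starting at 121767499 at 20 Gy, had a pileup of 48 there and 52 at 0 Gy, a ratio of 1.26 (0.835 to 1.91). The peak starting at 121771633 had 20 at 20 Gy and 38 at 0 Gy, a ratio of 0.720 (0.397 to 1.27). The peak starting at 121775317 had 29 and 39, and the one starting at 121764790 had 14 and 15. All 4 intervals included 1. The peaks starting at 121743424 and 121747522 were called at 20 Gy alone, with pileups of 12 and 13, and the one starting at 121639024 at 0 Gy alone, with 11. Near 144 Mb, between the immunoglobulin pseudogene IGKV1OR1-1 and LOC105371207, a non-coding RNA gene, the peak starting at 144102525 at 20 Gy had 13 fragments there and 15 at 0 Gy. The peak starting at 144103633 had 15 at 20 Gy and 22 at 0 Gy.

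Over all its peaks, the central stretch showed no repeat period common to both libraries. Neighbouring summits were a median of 10704.5 bp apart at 20 Gy and 9055 bp at 0 Gy, and only 40 pairs of summits at 20 Gy and 59 at 0 Gy lay within 5 kb of each other. The period from 100 to 400 bp that fitted these distances best was 106 bp at 20 Gy and 346 bp at 0 Gy. Among shared peaks alone, which are the same places in both lists, it was 219 bp at 20 Gy and 220 bp at 0 Gy. With so few close summits, this spacing could not be read as a feature of the repeats.

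The centromere regions of chromosomes 5 (46 to 51 Mb) and 19 (24 to 28 Mb) had fewer tall peaks than the chromosome 1 window with its edge and distal clusters. On chromosome 5 the 20 Gy list held 178 peaks of any height and the 0 Gy list 219, and on chromosome 19 they held 170 and 223. Median pileups were 13 at 20 Gy and 16 at 0 Gy in both, against 15 and 18 in the chromosome 1 window. In the central stretch alone they were 14 and 16. The highest central pileups were 56 at 20 Gy and 89 at 0 Gy. On chromosome 5 the highest were 364 and 474, and on chromosome 19 they were 52 and 76. Peaks with a pileup over 100 numbered 5 at 20 Gy and 7 at 0 Gy on chromosome 5, and 0 in either library on chromosome 19. The median ratio of 20 Gy to 0 Gy was 1.06 over the pairs of the window and 1.06 over all 1046 nuclear pairs. It was 1.05 over the 134 pairs of chromosome 5 and 1.00 over the 129 pairs of chromosome 19. The share of 20 Gy peaks that were shared was 75.7% in the window, 75.3% on chromosome 5 and 75.9% on chromosome 19, and at 0 Gy it was 65.9%, 61.2% and 57.8%. The intervals of these shares overlapped in each library. HaCaT cells are aneuploid, and the copy number of these chromosomes was not analysed here.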

How the data were processed

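AIM2 immunoprecipitates of HaCaT chromatin were sequenced, with 1 library per group. The submitters' processing notes name MACS2 2.1.2, BWA 0.7.15-r1140, deepTools 3.2.1, Trimmomatic 0.36 and bcl2fastq 2.20.0.422, with GRCh38.p13. Per the file headers, narrow peaks were called on each library separately in paired-end mode without a control, at a q-value limit of 0.05, keeping 1 fragment per position. The deposited pileup is an unscaled signal (coverage by fragments at the summit). Deposited p-values and q-values are −log10 values. The deposited fold enrichment is a ratio to the local background of the same library, with 1 added to both pileup and background. Each of these belongs to 1 peak and is the authors' own.

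Peaks were matched by overlap of at least 1 bp, and each was paired once with the peak of greatest overlap. Pileups were divided by the kept fragments. Local background was derived as (pileup + 1) / fold enrichment − 1, and Poisson p-values from it matched the deposited −log10 p-values to within 0.000670 in the 1494 of 1525 peaks at 20 Gy and 1899 of 1936 at 0 Gy that were checked. The peaks left unchecked were those with the highest −log10 p-values, among them the tallest edge and distal peaks. Ratios carry exact conditional binomial intervals. With single libraries no test or p-value between groups was computed, and ratios compare libraries. Named peaks were the 10 tallest, the 5 highest and lowest ratios, the 5 leading unshared peaks of each list and the ends of each block, and other peaks of the small clusters were named after their values were seen. The members, lists and comparison regions were chosen with earlier results of these data known. Genes came from a RefSeq table of GRCh38.p14. A genome sequence was not used here. Python 3.11.15, pandas 2.3.3 and scipy 1.17.1 were used, and the overlap, pairing and spacing steps were checked on simulated data.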

Additional observations from a re-analysis of the deposited data

How the results depend on the processing

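Counts and periods were compared by a factor of 1.5, shares by their Clopper-Pearson interval and the median ratio by the order-statistic interval of the median over pairs. By these bounds 34 values stayed and 15 moved. Dropping peaks below the median enrichment of their list left 118 members at 20 Gy and 147 at 0 Gy, fewer by construction. The median ratio of pairs, 1.06, was 0.776 with no scaling, 1.00 with the median of all nuclear pairs set to 1 and 1.00 from fold enrichment in place of pileup. It was 1.16 in the central stretch alone and 0.987 in the distal cluster alone, and 0.960 and 1.03 there by fold enrichment, settings added after the data were seen. The distal cluster alone was shared to 93.9% at 20 Gy and 88.2% at 0 Gy. The best spacing period was 219 bp at 20 Gy and 220 bp at 0 Gy from shared peaks, and 160 bp at 0 Gy from peaks that reached a −log10 q-value of 5. Blocks numbered 9 at distances over 100 kb and 4 over 200 kb, and the distance of 200 kb was added after the data were seen. Except where due to construction, the cause was not tested. The remaining alternatives (−log10 q-value limits of 3 and 5, equal minimum lengths, midpoints, merging within 1000 bp, reciprocal overlap of 50%, summits within 100 bp and unfiltered depth) moved no count, share or median ratio past these bounds, although a −log10 q-value limit of 5 left 168 members at 20 Gy and 209 at 0 Gy, below the Poisson intervals of the full counts (190 to 249 and 219 to 282). Depth limits what can be seen where pileups are low, as in the central stretch. No paired analysis was possible because 20 Gy and 0 Gy were sequenced as 1 library each.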
